A study of Homo sapiens with 7 samples.

Results

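The 10 genes described here encode the muscle acetylcholine receptor and the postsynaptic apparatus that holds it in place, and were followed in RH30 cells, untreated or treated with BV6. They were chosen by name, and all 10 of 10 were found among the 57189 genes of the count table. These were the receptor subunit genes CHRNA1, CHRNB1, CHRND, CHRNG and CHRNE and the synapse organizer genes AGRN, LRP4, MUSK, DOK7 and RAPSN. RH30 is an established line derived from alveolar rhabdomyosarcoma (RMS), a tumor with features of immature skeletal muscle, and BV6 is a Smac mimetic, a small molecule that binds inhibitor of apoptosis proteins. RNA was sequenced from 4 untreated samples and from 3 samples exposed to 5 µM BV6 for 24 h. The labels give all samples as RH30 of wild-type genotype, while the methods describe RH30 cells that express GFP and luciferase, and no other allele or agent is named. All samples thus come from 1 cell line grown without nerve or muscle fibers. The study speaks of biological replicates, but the labels do not say whether samples of a group were separate cultures, so p-values measure the spread between these samples only. BV6 replicates 2, 3 and 4 each share a label in their titles with the untreated sample of that number, taken here as a pairing, whereas untreated replicate 1 stands without a BV6 sample.

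The muscle acetylcholine receptor is a channel of alpha, beta, delta and either gamma or epsilon subunits that opens when acetylcholine released by the motor nerve binds. The gamma subunit belongs to the receptor of fetal or denervated muscle and is replaced by epsilon as the synapse matures. Agrin from the nerve binds LRP4, which activates the kinase MuSK together with the adaptor DOK7, and rapsyn then anchors receptors in clusters beneath the nerve terminal. Transcription of these genes in muscle is driven by myogenic factors that bind E-boxes, and at the synapse also by Ets factors such as GABP that bind N-boxes.

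Promoter sequence of RefSeq (GRCh38.p14) was available for 6 of the 10 genes, CHRNA1, CHRNB1, CHRND, CHRNE, MUSK and DOK7, and the 250 bases before each start were searched on both strands. The letters searched were the E-box CANNTG, its form CAGCTG, the N-box CCGGAA and the κB consensus bound by NF-κB. CAGCTG is one of the forms of CANNTG. Of 35116 windows of that length, 61.8% held an E-box, 14% held CAGCTG, 14.5% an N-box and 9.96% a match to the κB consensus. Sequences are shown 5′ to 3′ on the strand of the gene for the subunit genes CHRNA1, CHRNE and CHRND and for DOK7, the organizer with the largest difference between the groups, and capitals mark the matches. Positions are those of the first base of a match, counted back from the start.
CHRNA1 chr2:174764473-174764722 (minus strand): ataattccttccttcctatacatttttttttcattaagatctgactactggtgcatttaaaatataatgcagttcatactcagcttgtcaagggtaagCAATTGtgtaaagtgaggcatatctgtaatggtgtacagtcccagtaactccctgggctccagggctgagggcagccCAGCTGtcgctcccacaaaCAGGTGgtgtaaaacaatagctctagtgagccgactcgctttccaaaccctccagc
CHRNE chr17:4903099-4903348 (minus strand): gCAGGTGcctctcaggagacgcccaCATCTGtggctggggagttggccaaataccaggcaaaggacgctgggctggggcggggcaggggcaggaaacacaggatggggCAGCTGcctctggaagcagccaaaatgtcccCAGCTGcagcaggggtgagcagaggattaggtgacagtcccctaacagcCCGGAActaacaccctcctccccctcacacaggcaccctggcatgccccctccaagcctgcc
DOK7 chr4:3463056-3463305 (plus strand): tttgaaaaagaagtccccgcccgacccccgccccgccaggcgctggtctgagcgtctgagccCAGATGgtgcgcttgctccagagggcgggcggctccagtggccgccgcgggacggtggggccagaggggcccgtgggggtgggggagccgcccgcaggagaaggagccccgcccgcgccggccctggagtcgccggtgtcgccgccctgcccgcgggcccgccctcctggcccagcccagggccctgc
For CHRND, whose window overlaps exons of a longer annotated transcript, the 3 matches are shown with their flanks only.
CHRND κB consensus chr2:232525993-232526022 (plus strand): tccgagctgcGGGGAGTCCCagcctgggat
CHRND N-box chr2:232526082-232526111 (plus strand): gtcagattgtgtTTCCGGctgcctcttccc
CHRND E-box chr2:232526121-232526150 (plus strand): ctcctcccccaaCACCTGtcccctctcccg
All 6 genes held an E-box in at least 1 window. CHRNA1 held 3, at -152, -75 and -56, of which the one at -75 was CAGCTG. CHRNE held 4 E-boxes, 2 of them CAGCTG at -142 and -111, and an N-box at -62. CHRND held 1 E-box at -27, 1 N-box at -66, read as TTCCGG from the other strand, and, alone among these genes, 1 match to the κB consensus at -157. CHRNB1 held 4 E-boxes and MUSK 3. DOK7 held 1 E-box at -188 and none in the window of its second start. These matches describe letters and say nothing of binding.

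Counts summed to between 54070030 and 77220882 per sample, and 3 counts, the smallest number taken as detected, correspond to a level of 0.0389 to 0.0557 CPM (counts scaled to the normalized library). The floor takes account of error of counting alone, and the sources used here do not state how PCR duplicates were handled. The sums exceed the number of sequencing reads per library that the study reports. The sources used here do not state whether both ends of a read pair were counted once, so 3 counts may stand for fewer fragments. The 4 NF-κB targets that mark a response to BV6 rose, with log2 fold changes of 4.86 for BIRC3, 3.58 for TRAF1, 2.17 for NFKBIA and 1.67 for NFKB2 (adjusted p = 0.00341, 0.00341, 0.0116 and 0.011, edgeR quasi-likelihood test with Benjamini-Hochberg adjustment). Without untreated replicate 4, 2 of these 4 were called. Of 9 genes that mark RMS, 8 were tested and none was called, while TFAP2B was near the floor in all samples. Summed leukocyte markers lay at 10.8 to 14.8 CPM without BV6 and 7.29 to 12.1 CPM in BV6 samples, with NKG7 at a mean of 9.79 and 6.82 CPM, and summed neuron and Schwann cell markers at 121 to 185 and 84.6 to 146 CPM. None of the 8 of 14 and 4 of 10 such markers tested was called by edgeR. The second sum was mostly TUBB3 (109 and 71.3 CPM), while the other 3 tested neuron and Schwann cell markers had log2 fold changes above 0. Of these PMP22, at 28.9 ± 4.36 CPM (SD, n = 4) and 45.2 ± 4.24 CPM (SD, n = 3), was called by DESeq2 (log2 fold change 0.63, adjusted p = 0.0117). There were 2 libraries that stood apart by GC content. In the genes richest in GC (at least 57.4% of the longest transcript), the median deviation from the mean of all samples was -0.63 on the log2 scale in BV6 replicate 3 and 0.41 in untreated replicate 1, and -0.06 to 0.15 in the other 5.

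With BV6, 9 of the 10 genes had a log2 fold change below 0, and CHRNE was the exception at 0.01. The same held for 12104 of 23124 genes tested (52.3%). The median log2 fold change was -0.36 over the 10 genes and -0.01 over all genes. None of the 10 passed the edgeR quasi-likelihood test after Benjamini-Hochberg adjustment, which called 104 of all genes (0.450%). At an unadjusted p below 0.05 in that test, 4 genes were lower, CHRNA1, CHRND, CHRNG and DOK7, and none higher, where 4.26% of all genes were lower at that level. The Wald test of DESeq2 called 2 genes lower, CHRND and DOK7 (0.783% of all genes were called lower), and limma-voom called 0. In 2 of the 10 genes, again CHRND and DOK7, every BV6 sample lay below every untreated sample, as in 3.89% of all genes. Another count, over pairs of the same replicate number, found 6 of the 10 genes lower with BV6 in each of the 3 pairs, CHRNA1, CHRNB1, CHRND, CHRNG, MUSK and DOK7, as were 17.7% of all genes. When the replicate number entered the edgeR model as a block, 1 gene was called lower, CHRND (0.294% of all genes). In bulk RNA, fewer cells that express a gene and less RNA per cell cannot be told apart.

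**Figure D1:**
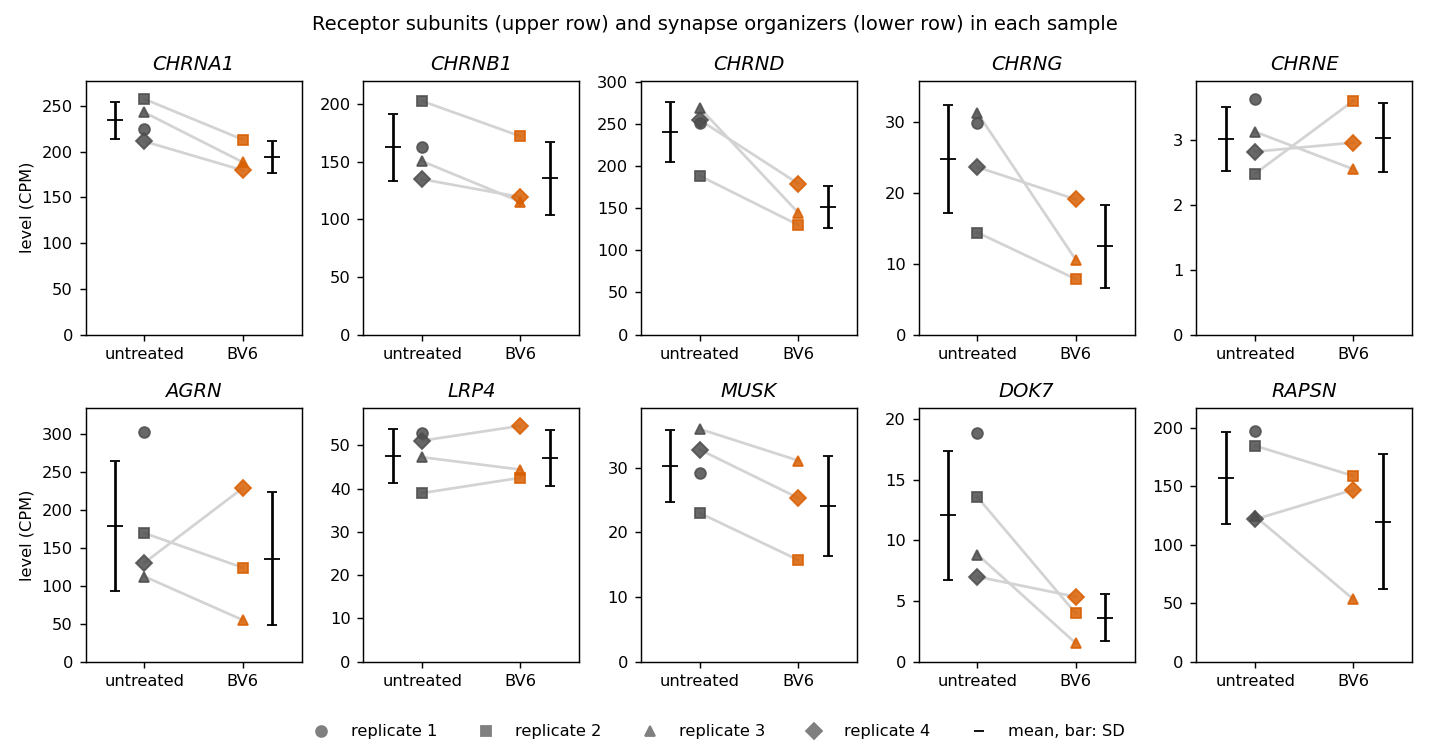
Level of each gene in CPM of the normalized library in 4 untreated (grey) and 3 BV6 samples (orange), with the mean and SD beside them and lines joining samples of the same replicate number. The BV6 samples lie below all untreated samples for CHRND (130 to 179 against 188 to 269 CPM) and DOK7 (1.52 to 5.35 against 7.002 to 18.8 CPM), and the groups overlap for the other 8 genes.

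Among the receptor subunits, CHRND, the gene of the delta subunit (chromosome 2, 232525993 to 232536667, plus strand, GENCODE on GRCh38 as for all genes below), had the smallest p of the 10 genes (0.00166 before adjustment, edgeR). It was at 250, 188, 269 and 255 CPM in untreated replicates 1 to 4 and at 130, 145 and 179 CPM in BV6 replicates 2 to 4. The lowest untreated sample was replicate 2, whose BV6 partner was also the lowest of its group, and the groups did not overlap. The untreated mean was 240 ± 35.7 CPM (SD, n = 4) and the BV6 mean 151 ± 25.2 CPM (SD, n = 3). The log2 fold change was -0.67 (standard error 0.154, 95% interval -1.01 to -0.32), with an adjusted p of 0.153 by the edgeR quasi-likelihood test and 0.0149 by DESeq2. With the replicate block it was -0.64 (adjusted p = 0.0368, edgeR). Within replicates 2, 3 and 4, CHRND was lower with BV6 by log2 differences of -0.53, -0.89 and -0.51.

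CHRNG, the gene of the fetal gamma subunit, lies beside CHRND on chromosome 2 (232539692 to 232548115, plus strand). It was at 29.9, 14.4, 31.3 and 23.7 CPM in untreated replicates 1 to 4 and at 7.85, 10.6 and 19.1 CPM in BV6 replicates 2 to 4. BV6 replicate 4 lay above untreated replicate 2, so that the groups overlapped, although each BV6 sample was below its own partner. The mean was 24.8 ± 7.69 CPM (SD, n = 4) and 12.5 ± 5.87 CPM (SD, n = 3), and the log2 fold change was -0.99 (standard error 0.338, 95% interval -1.75 to -0.23, adjusted p = 0.426, edgeR). The log2 difference varied between pairs, at -0.88, -1.56 and -0.31 in replicates 2, 3 and 4.

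CHRNA1, the gene of the alpha subunit, which carries much of the acetylcholine binding site (chromosome 2, 174747592 to 174787935, minus strand), was measured at 225, 257, 243 and 211 CPM in untreated replicates 1 to 4 and at 213, 188 and 180 CPM in BV6 replicates 2 to 4. Only BV6 replicate 2 reached into the untreated range. The log2 fold change of CHRNA1 was -0.27 (95% interval -0.52 to -0.03, adjusted p = 0.557, edgeR), and the pairs differed by -0.27, -0.37 and -0.23. CHRNB1, the gene of the beta subunit (chromosome 17, 7445061 to 7457710, plus strand), was at 163, 203, 151 and 135 CPM untreated and at 172, 115 and 119 CPM with BV6. The groups overlapped, with replicate 2 the highest in both. Its log2 fold change was -0.26 (95% interval -0.66 to 0.14, adjusted p = 0.744, edgeR), with pair differences of -0.24, -0.38 and -0.18. It moved to -0.46 without BV6 replicate 2, -0.15 without untreated replicate 2 and -0.15 without BV6 replicate 3.

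CHRNE, the gene of the adult epsilon subunit (chromosome 17, 4897771 to 4934438, minus strand), had the lowest untreated mean of the 10. Its level was 3.62, 2.48, 3.12 and 2.81 CPM in untreated replicates 1 to 4 and 3.60, 2.54 and 2.95 CPM in BV6 replicates 2 to 4. Both groups spanned nearly the same range, and each sample held at least 139 counts, far above the floor. The log2 fold change was 0.01 with a 95% interval of -0.45 to 0.47 (adjusted p = 0.994, edgeR), and the pairs went in different directions (0.54, -0.29 and 0.07). Of the 5 subunit genes, 0 were called by edgeR and 1 each by DESeq2 and with the replicate block, in all cases CHRND, and their median log2 fold change was -0.27.

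The exchange of gamma for epsilon was described by the ratio of CHRNG to CHRNE counts per kilobase of exon within each sample. CHRNG was higher than CHRNE in all 7 samples, by 4.69 to 8.09 times in untreated and 1.76 to 5.21 times in BV6 samples. On the log2 scale the ratio was 2.73, 2.23, 3.02 and 2.76 in untreated replicates 1 to 4 and 0.82, 1.74 and 2.38 in BV6 replicates 2 to 4. BV6 replicate 4 lay within the untreated range and the other two BV6 samples below it. The difference of the means was -1.04 (2.68 ± 0.329, SD, n = 4, against 1.65 ± 0.787, SD, n = 3). An exact two-sided permutation test over 35 splits gave p = 0.0857, above 0.05. It did not use the pairing, and so few splits allow only coarse steps of p. With the replicate block the difference was -1.02. Without BV6 replicate 2 the difference was -0.62. Pairs 2, 3 and 4 differed by -1.41, -1.27 and -0.38, all toward less CHRNG relative to CHRNE.

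**Figure D2:**
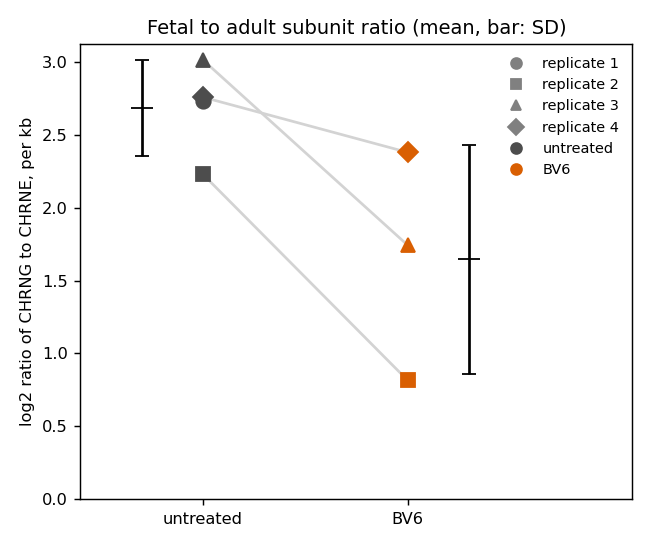
Log2 ratio of CHRNG to CHRNE counts per kilobase of merged exons in each sample, untreated in grey and BV6 in orange, with mean and SD and lines joining samples of the same replicate number. Untreated samples lie between 2.23 and 3.02 and BV6 samples between 0.82 and 2.38, and all 3 lines point downward.

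The organizer with the largest difference was DOK7, the gene of the adaptor that activates MuSK from within the cell (chromosome 4, 3463306 to 3501473, plus strand). Its counts were 1452, 761, 532 and 433 in untreated replicates 1 to 4 and 223, 93 and 288 in BV6 replicates 2 to 4, or 18.8, 13.6, 8.83 and 7.002 CPM against 3.97, 1.52 and 5.35 CPM. The groups did not overlap, but untreated samples spread widely, with replicate 1 the highest, and BV6 replicate 3 stood below the rest. Untreated samples had a mean of 12.1 ± 5.30 CPM (SD, n = 4) and BV6 samples one of 3.61 ± 1.94 CPM (SD, n = 3), with the log2 fold change at -1.74 (standard error 0.451, 95% interval -2.75 to -0.73). The adjusted p was 0.216 by edgeR, 0.00434 by DESeq2 and 0.124 with the replicate block in edgeR. Between pairs the log2 difference was -1.77, -2.53 and -0.39, closest to 0 in replicate 4. Without BV6 replicate 3 the log2 fold change was -1.37, and without untreated replicate 1 it was -1.44.

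MUSK, the gene of the receptor kinase at the center of the pathway (chromosome 9, 110668779 to 110806558, plus strand), was at 29.3, 22.98, 36.0 and 32.8 CPM in untreated replicates 1 to 4 and at 15.7, 31.1 and 25.3 CPM in BV6 replicates 2 to 4. The groups overlapped, while each BV6 sample was below its partner, by -0.55, -0.21 and -0.37 on the log2 scale. The log2 fold change of MUSK was -0.33 (95% interval -0.85 to 0.19, adjusted p = 0.75, edgeR), and it was -0.09 without BV6 replicate 2 and -0.55 without BV6 replicate 3. LRP4, the gene of the agrin receptor (chromosome 11, 46856717 to 46918642, minus strand), was nearly level, at 52.9, 39.0, 47.2 and 51.1 CPM untreated and 42.5, 44.4 and 54.5 CPM with BV6. Its log2 fold change was -0.01, with a 95% interval of -0.33 to 0.30 (adjusted p = 0.987, edgeR).

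AGRN and RAPSN varied more between samples than between groups. AGRN, the gene of agrin (chromosome 1, 1020120 to 1056118, plus strand), was at 303, 169, 112 and 130 CPM in untreated replicates 1 to 4 and at 124, 54.9 and 229 CPM in BV6 replicates 2 to 4. Untreated replicate 1 was the highest sample and BV6 replicate 3 the lowest, and the pairs disagreed in direction (-0.45, -1.03 and 0.81). RAPSN, the gene of rapsyn (chromosome 11, 47437764 to 47449143, minus strand), was at 197, 185, 124 and 122 CPM untreated and at 159, 53.3 and 147 CPM with BV6, again with BV6 replicate 3 the lowest and pairs of both directions (-0.22, -1.22 and 0.27). The log2 fold changes were -0.40 for AGRN (95% interval -1.42 to 0.63, adjusted p = 0.84) and -0.39 for RAPSN (-1.15 to 0.37, adjusted p = 0.789, both edgeR). Without BV6 replicate 3 they were -0.01 and -0.03, while AGRN was at -1.01 without BV6 replicate 4 and RAPSN at -0.65 without BV6 replicate 2. Of the 5 organizer genes, 0 were called by edgeR with or without the block and 1, DOK7, by DESeq2, and their median log2 fold change was -0.39.

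**Figure D3:**
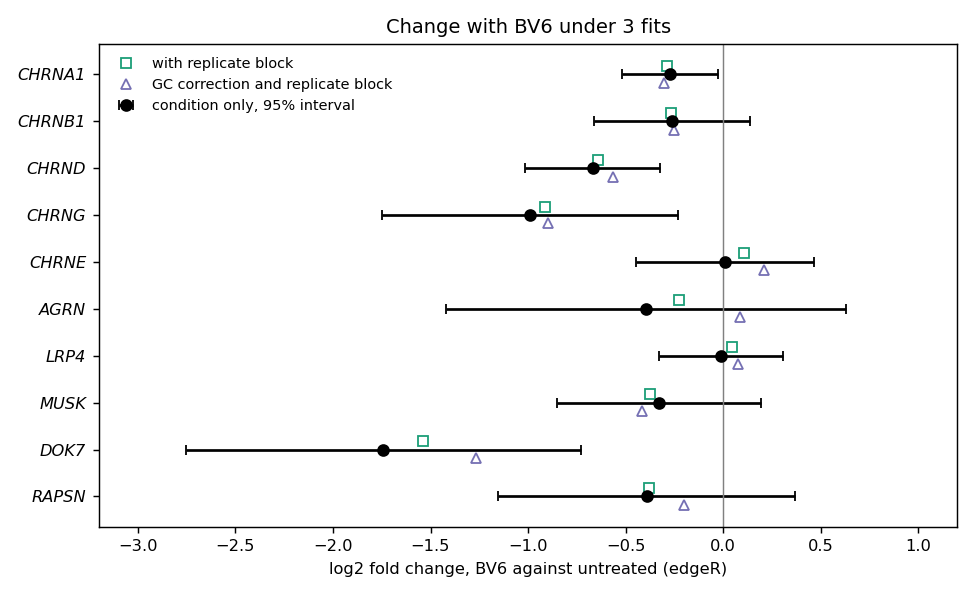
Log2 fold change of BV6 against untreated for each gene from 3 edgeR fits, with the condition only (black, bars are 95% intervals), with the replicate block (squares) and with GC correction and replicate block (triangles). The estimates for CHRND stay between -0.67 and -0.57 and those for AGRN and LRP4 lie on both sides of 0, while DOK7 moves from -1.74 to -1.27.

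Because AGRN (67.9% GC in the longest transcript), DOK7 (66.5%), RAPSN (62.5%), CHRNE (59.0%) and CHRND (57.7%) were among the genes richest in GC and libraries differed in GC-rich genes, the fits were repeated with each library's trend with GC content removed, an alternative that was added with the data in view. On 13895 genes with a mean of at least 1 CPM and a known GC content, the corrected fit called 1 of the 10 genes lower, DOK7, at a log2 fold change of -1.36 (adjusted p = 0.0149, edgeR), where 0.266% of the genes were called lower. CHRND was at -0.53 in that fit and was not called (adjusted p = 0.242, edgeR). With the replicate block added it called 6, where 3.58% were called lower. These were CHRNA1 (-0.30), CHRNB1 (-0.25), CHRND (-0.57), CHRNG (-0.90), MUSK (-0.42) and DOK7 (-1.27), with adjusted p from 0.00145 to 0.0303 (edgeR). The GC trend was estimated from the same counts and then taken as known, so these p-values leave out its error. A GC trend that goes with BV6 would be removed as well. With the block, untreated replicate 1 has no partner and adds nothing to the difference. AGRN was at 0.01 with the correction and 0.08 with correction and block, and was not called. CHRNA1 (48.4% GC), CHRNB1 (53.4%), CHRNG (53.7%), LRP4 (54.9%) and MUSK (38.0%) were not among the genes richest in GC.

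**Figure D4:**
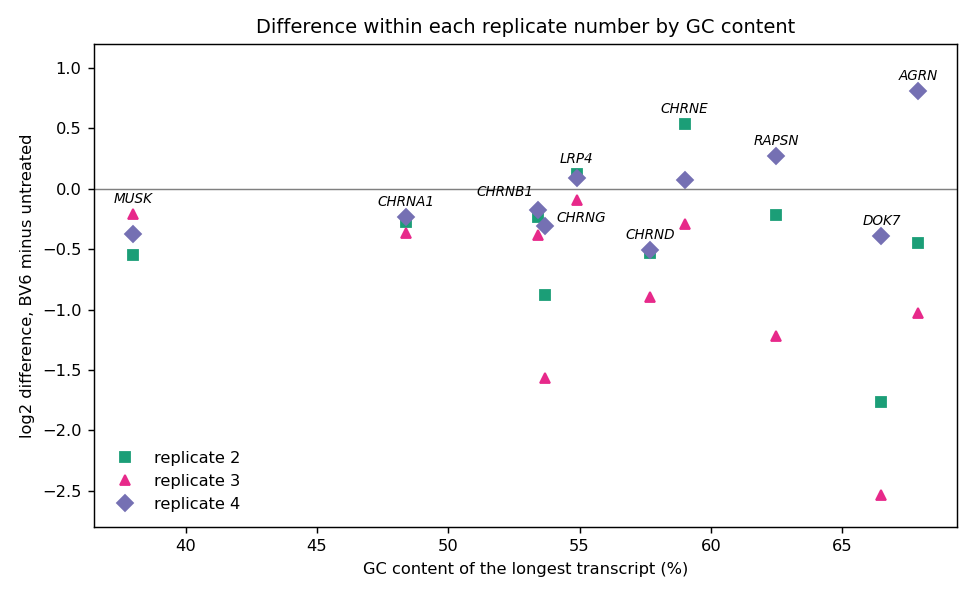
Log2 difference between the BV6 and the untreated sample of replicates 2, 3 and 4 for each gene (y axis) against the GC content of its longest transcript in percent (x axis). Replicate 3 gives the lowest value for every gene but MUSK.

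Levels of different genes were compared only as CPM per kilobase of merged exons. In untreated samples the highest was RAPSN at 83.7 ± 21.1, followed by CHRND at 76.8 ± 11.4, CHRNA1 at 47.0 ± 4.07 and CHRNB1 at 37.6 ± 6.70 (SD, n = 4). AGRN stood at 16.6 ± 7.99, CHRNG at 5.69 ± 1.76, LRP4 at 5.43 ± 0.707, MUSK at 3.30 ± 0.607, DOK7 at 2.99 ± 1.31 and CHRNE at 0.854 ± 0.138 CPM per kilobase. The sample ranges of neighbors overlapped for RAPSN and CHRND, CHRNA1 and CHRNB1, CHRNG and LRP4, and MUSK and DOK7, so that the order within these pairs is not settled. They did not overlap between CHRND and CHRNA1, CHRNB1 and AGRN, AGRN and CHRNG, LRP4 and MUSK, or DOK7 and CHRNE. Beyond neighbors, the range of CHRNG (from 3.31) overlapped those of MUSK (up to 3.92) and DOK7 (up to 4.67). The range of LRP4 (from 4.45) overlapped that of DOK7. The genes of the alpha, beta and delta subunits and of rapsyn were thus the abundant ones. Those of the kinase, its adaptor and the epsilon subunit had the lowest means. With BV6 the order was the same except that LRP4 (5.39 ± 0.738, SD, n = 3) stood above CHRNG (2.87 ± 1.35). When the longest transcript was taken as length, CHRNA1 came first at 111, and 5 of the 10 genes kept their place.

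**Figure D5:**
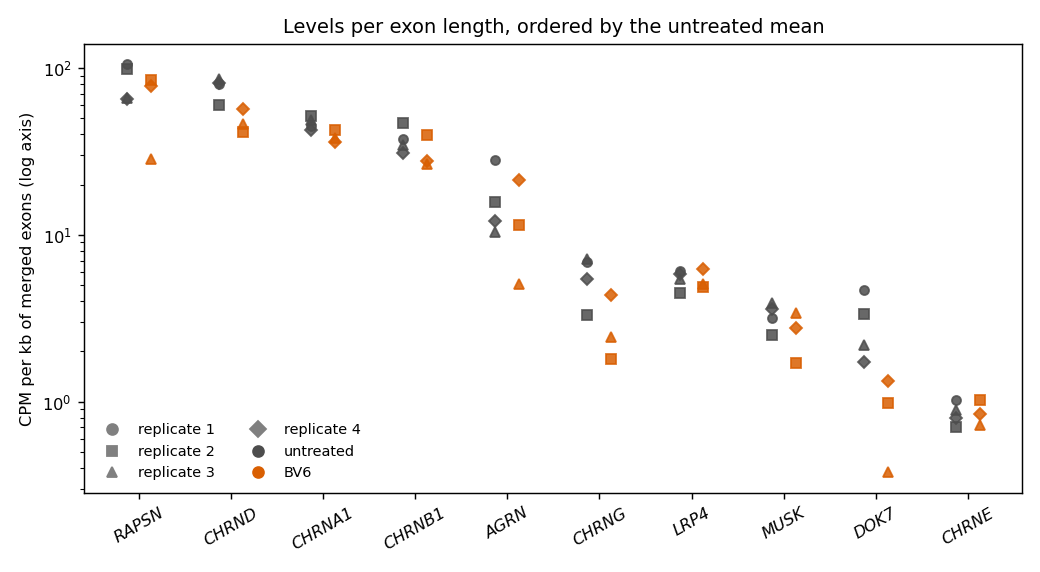
CPM per kilobase of merged exons on a log axis for each gene, ordered by the untreated mean from RAPSN (83.7) to CHRNE (0.854), with untreated samples in grey and BV6 samples in orange. The largest shift between the colors is seen for DOK7.

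Overlapping genes limit what the counts of CHRNG and CHRNE can show, since the sources used here do not state whether counting used strand. Exons of TIGD1 on the opposite strand cover 2918 bases, 66.9% of the exon bases of CHRNG. TIGD1 was at 8.20 ± 0.980 CPM (SD, n = 4) untreated and 8.43 ± 2.19 CPM (SD, n = 3) with BV6, and its log2 fold change was 0.04 (adjusted p = 0.968, edgeR). C17orf107 on the opposite strand shares 48.62% of the exon bases of CHRNE and was at 0.233 ± 0.0604 CPM untreated and 0.464 ± 0.0812 CPM with BV6 (log2 fold change 0.97, adjusted p = 0.43, edgeR). CHRNE shares further bases with MINK1 (log2 fold change -0.10) and GP1BA (0.05), and LRP4 shares 515 bases with the antisense gene LRP4-AS1 (0.18), none of them called. Long noncoding genes on the same strand share 630 bases (14.54%) with CHRNB1 and 402 bases (3.74%) with AGRN, which counting by strand would not separate. Another, on the opposite strand, shares 162 bases (3.25%) with CHRNA1. CHRND, MUSK, DOK7 and RAPSN shared no exon bases with another annotated gene.

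Around these genes, 6 lists of partners were followed that together held 74 genes, of which 67 were tested. The only one called was HDAC9, a class IIa histone deacetylase that acts as a repressor in muscle. It rose from 3.75, 4.42, 4.596 and 5.34 CPM in untreated replicates 1 to 4 to 22.97, 18.1 and 13.6 CPM in BV6 replicates 2 to 4, a change of 2.01 ± 0.201 (standard error) on the log2 scale with an adjusted p of 0.00446 (edgeR). Every BV6 sample was above every untreated sample. Of the 10 tested of 12 myogenic and denervation regulators, the other 9 were not called, and the median log2 fold change was -0.12. MYOD1, a myogenic factor that binds E-boxes, was at 344 ± 86.9 and 251 ± 89.6 CPM (log2 fold change -0.45, adjusted p = 0.693), and MYOG, a later factor of the same family, was at 150 ± 53.8 and 154 ± 64.2 CPM (0.03, adjusted p = 0.985, both edgeR, SD, n = 4 and 3). RUNX1, which increases in denervated muscle, was at 0.14 and NCAM1 at -0.30 on the log2 fold change scale.

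Of 16 genes that act downstream of MuSK, 16 were tested and 0 called, with a median log2 fold change of 0.05 and values of 0.42 for the kinase gene ABL2, 0.12 for the adaptor CRK, -0.24 for ABL1 and -0.20 for PAK1. Of 18 genes of the dystrophin complex and the synaptic basal lamina, 17 were tested and 0 called by edgeR, with a median of -0.07. In this list ACHE, the gene of the enzyme that breaks down acetylcholine in the cleft, had 10, 4, 10 and 14 counts in untreated replicates 1 to 4 and 24, 34 and 57 counts in BV6 replicates 2 to 4. All BV6 samples were above all untreated ones, at a low level. ACHE thus had a log2 fold change of 2.17 ± 0.455 (standard error), and its adjusted p was 0.109 by edgeR, 0.059 with the replicate block and 0.00355 by DESeq2. DMD, the dystrophin gene, was at 0.45 (adjusted p = 0.201 by edgeR and 0.0324 by DESeq2), LAMA5, a laminin chain of the basal lamina, at -1.27 (adjusted p = 0.383, edgeR) and DAG1, the dystroglycan gene, at -0.40. The neuregulin and Ets route had 7 of 7 genes tested and 0 called, with a median of -0.10. ETV5, an Ets factor of the synapse, was at -0.44 (adjusted p = 0.44, edgeR), ERBB2 at -0.10, and GABPA and GABPB1, which form the N-box binding factor, at 0.00 and 0.05. For receptor assembly and glycosylation, 9 of 10 genes were tested and 0 called, with a median of 0.13 and values of 0.46 for ALG2, 0.18 for the chaperone gene CANX, -0.23 for GMPPB and -0.40 for TMEM35A.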

How the data were processed

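RNA of RH30 cells was sequenced, and counts of 4 untreated and 3 BV6 samples were used. The authors deposited raw counts per gene, made by mapping stranded mRNA libraries, read from both ends, to GRCh38 with STAR 2.6.1d and counting with a custom union model of Ensembl transcripts. The counting program, its use of strand and its handling of reads on several genes are not given in the sources used here. Overlapping genes are the ones these steps can change. What set libraries apart in GC-rich genes was not tested.

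From these counts, genes were filtered with filterByExpr (minimum count 10), normalized by TMM and compared with the quasi-likelihood test of edgeR 4.0.16 in R 4.3.3, with the condition as the only term, Benjamini-Hochberg adjustment over 23124 genes and a threshold of 0.05. CPM refer to the TMM-normalized library. Alternatives were DESeq2 1.42.0, limma-voom 3.58.1, RLE factors, other filters, the replicate block, leaving out each sample and, chosen after seeing the data, a loess correction for GC content (span 0.5), for which 81.5% of 17059 genes had a value. Tests were tested on simulated counts. The ratio of CHRNG to CHRNE had 0.5 added to each count.

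Pairing was read from the label that sample titles share. Deviations from the group mean of the same replicate number correlated at 0.515, 0.322 and 0.197 over the 3 pairs, and at 0.462, 0.438 and 0.0847 when the untreated mean included replicate 1. The numbers were taken as pairing the samples from the first values and the label.

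The genes and lists were chosen with earlier results of these data known. Named genes were the 10 members, from each list the 2 genes with the smallest p in each direction and every gene called, MYOD1, MYOG, the 4 NF-κB targets and genes whose exons overlap a member. Exons were those of GENCODE for GRCh38, in which 36611 of 57189 genes were matched by symbol. Promoters were those of RefSeq.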

Additional observations from a re-analysis of the deposited data

How the results depend on the processing

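All 16 alternative fits kept CHRND, DOK7, CHRNG, CHRNA1, CHRNB1, MUSK and RAPSN below 0, while AGRN, LRP4 and CHRNE changed sign in some. With DESeq2, without a filter on low counts, with the replicate block, with GC correction and with GC correction and replicate block, the number of genes called was 447, 242, 218, 173 and 969. It was 104 in the fit reported, and 81 on the 13895 genes of the GC fits without correction. The number of members called was 2, 2, 1, 1 and 6 in place of 0. CHRND and DOK7 were the 2 called with DESeq2 and without a filter (adjusted p = 0.0282 and 0.0147 without a filter, edgeR). Of the partner lists, 3, 2 and 10 genes were called with DESeq2, without a filter and with GC correction and replicate block, in place of 1. Calls over all genes rose as well, from 104 of 23124 to 447 of 23124 with DESeq2, 242 without a filter and 969 of 13895 in the last fit. The last fit left out partner genes with a mean below 1 CPM or no known GC content, and those that remained were not counted. Without GC correction the block changed no other call among the members than that of CHRND, and for the sarcomere genes it is given below. Leaving out each sample in turn gave 38 to 89 genes called, 0 members called and 1 partner gene called in every fit, and a median log2 fold change of the members of -0.47 to -0.20, the latter without BV6 replicate 3. The fall to 38 was seen without untreated replicate 3, to 41 without untreated replicate 1, to 44 without untreated replicate 4, to 53 and 57 without BV6 replicates 4 and 2 and to 65 without untreated replicate 2. Over these fits the log2 fold change ran from -0.81 to -0.56 for CHRND, -2.15 to -1.37 for DOK7, -1.43 to -0.74 for CHRNG, -0.65 to -0.03 for RAPSN, -1.01 to -0.01 for AGRN, -0.55 to -0.09 for MUSK and -0.46 to -0.15 for CHRNB1, and the difference in the CHRNG to CHRNE log2 ratio from -1.41 to -0.62. The order of levels kept 5 of 10 places with the longest transcript as length. The cause of these shifts was not tested. TMEM35A, ACHE and some other genes had few counts, while each of the 10 members had at least 93 counts in every sample. No fit varied the depth.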

Other observations

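Genes of the contractile apparatus, whose products form the sarcomere, were measured in the same fits. Of 18 such genes, 18 were tested and 0 were called by edgeR, with a median log2 fold change of -0.32. The log2 fold change was below 0 in 15, as in 52.3% of all genes tested. At an unadjusted p below 0.05 in that test, 3 were lower, MYL1, TNNI2 and TNNT3, as were 4.26% of all genes. With the replicate block, 3 were called lower, where 0.294% of all genes were called lower. These were MYL1 and MYL4, genes of myosin light chains, and TNNI2, the gene of fast troponin I (adjusted p = 0.0141, 0.0379 and 0.0488, edgeR). MYL1 was at 12.5, 7.05, 17.0 and 21.0 CPM in untreated replicates 1 to 4 and at 3.74, 7.76 and 10.1 CPM in BV6 replicates 2 to 4, each BV6 sample below its partner. DESeq2 called none of the 18. With GC correction and replicate block, 5 sarcomere genes were called, where 969 of 13895 genes were called in either direction. TNNT2, a cardiac and embryonic troponin T gene, was at 0.30 (adjusted p = 0.619, edgeR).

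Among markers of RMS, the median log2 fold change of the 8 tested was -0.32, with -0.73 for FGFR4 (adjusted p = 0.586) and -0.44 for DES, the desmin gene (adjusted p = 0.623, both edgeR). In the fit with GC correction and replicate block, 1 gene of this list was called. FGFR4 was lowest in BV6 replicate 3 at 211 CPM and highest in untreated replicate 1 at 933 CPM, the 2 libraries that stood apart by GC content. The same 2 libraries held the lowest and highest levels of MYOD1 (157 and 474 CPM) and LAMA5 (9.16 and 75.0 CPM). Their part in the values of these genes was not tested.

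Of 11 genes of neuronal acetylcholine receptor subunits, 8 were tested and 0 called by edgeR or DESeq2, with a median log2 fold change of 0.15. Their summed level was 40.7 to 45.1 CPM in untreated and 46.7 to 49.0 CPM in BV6 samples. CHRNA7, the gene of the homomeric receptor subunit, was at 24.7 ± 2.73 CPM (SD, n = 4) and 28.2 ± 1.34 CPM (SD, n = 3), with a difference of 0.19 on the log2 scale (adjusted p = 0.735, edgeR).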
